A study of Mus musculus with 4 samples.

Results

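The neuregulin and ErbB receptor genes were followed through the cells of the mouse dorsal root ganglion (DRG). They were chosen by symbol and are 9 of the 33456 genes listed in the files: the ligand genes *Nrg1*, *Nrg2*, *Nrg3*, *Hbegf* and *Btc*, and the receptor genes *Erbb2*, *Erbb3*, *Erbb4* and *Egfr*. Single cell RNA-seq was performed with the 10x Genomics 3′ kit on ganglia of C57BL/6 mice aged 8 to 12 weeks, all female according to the methods. The control group held 2 libraries from naïve ganglia, and the injury group held 2 libraries from ganglia taken 3 days after sciatic nerve crush. In all groups the ganglia were dissociated with papain and collagenase and sorted for live cells. The labels name L4 ganglia and the methods name L4 and L5. Each library held pooled cells of several mice, the labels call the libraries of a group biological replicates, and p-values measure the spread between these pools.

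ErbB proteins are receptor tyrosine kinases that signal as pairs. ERBB3 binds neuregulin 1 but has almost no kinase activity of its own. ERBB2 has a kinase but no known ligand, so the pair forms a working receptor for neuregulin 1. In peripheral nerve, neuregulin 1 on axons is known to drive Schwann cell survival, migration and myelination through this pair. EGFR binds the EGF-like ligands HB-EGF and betacellulin, which also bind ERBB4.

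The 4 matrices held 6975 barcodes, each standing for 1 cell. Library totals ran from 5585909 to 11210875 unique molecular identifiers (UMIs, 1 for each captured RNA molecule), and library medians from 2756 to 4934.5 UMIs per barcode. Each barcode took a cell type from fixed marker lists that contain none of the 9 genes, and 5518 barcodes received 1 of 15 types. The types are strictly neuron-like, satellite glial cell (SGC)-like and so on, and the ending is left out from here. Of SGC, the control libraries held 73 (replicate 1) and 432 (replicate 2) and the injury libraries 622 and 258. Of neurons they held 22 and 150, and 23 and 66. Pairs of values below give replicate 1 first. Neurons had a median of 19505 UMIs, SGC 3953 and myelinating Schwann cells 2119. Glia gated by *Scn7a*, *Ngfr* and other markers of non-myelinating glia (*Scn7a* glia) reached 10 cells in both replicate 1 libraries alone. Between 1 and 6 barcode sequences were shared by any pair of libraries, 20 in all.

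The 9 genes were sparse. Over all barcodes *Hbegf* had 2109 UMIs, *Erbb3* 847, *Egfr* 459, *Erbb2* 247, *Nrg2* 155, *Nrg1* 141, *Nrg3* 129, *Btc* 41 and *Erbb4* 8. Barcodes without a type held between 12.2% (*Egfr*) and 43.9% (*Btc*) of a gene's UMIs. For *Erbb3*, 282 UMIs lay in such barcodes, and 255 of them were in barcodes whose leading marker list was a glial one. Levels are given below as CPM, a gene's UMIs scaled to the UMI total of its type in that library, a unit that carries no correction for gene length.

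A pair of upstream sequences is shown because *Egfr* and *Erbb2* are the receptor genes that were both higher in fibroblasts than in the mean of the other types, as described below. RefSeq-based promoter sequences on GRCm38.p6 were at hand for 5 of the 9 genes. Both stretches lie on the plus strand and end at the base before the annotated gene start. Capitals mark TCCTCC and the GC box GGGCGG on either strand, and in *Egfr* the last matches overlap one another.
Egfr, chr11:16751953-16752202: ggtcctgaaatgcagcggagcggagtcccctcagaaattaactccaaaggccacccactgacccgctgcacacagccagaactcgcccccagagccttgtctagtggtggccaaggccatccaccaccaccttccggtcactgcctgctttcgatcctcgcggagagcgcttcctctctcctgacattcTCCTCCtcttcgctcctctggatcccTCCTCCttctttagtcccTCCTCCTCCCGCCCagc
Erbb2, chr11:98412234-98412469: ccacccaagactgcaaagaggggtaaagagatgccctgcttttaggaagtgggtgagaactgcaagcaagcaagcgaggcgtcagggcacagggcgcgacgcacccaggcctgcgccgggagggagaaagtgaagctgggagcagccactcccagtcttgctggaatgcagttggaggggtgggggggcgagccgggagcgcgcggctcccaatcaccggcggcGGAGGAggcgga
The *Egfr* stretch was 60.8% G and C and held 4 matches of TCCTCC and 1 GC box. The *Erbb2* stretch was 65.7% G and C and held 1 match of TCCTCC and no GC box. Neither held TATAAA. Of 32851 promoters in the same table, 29.2% held TCCTCC on either strand in the 250 bases before the start (236 are shown for *Erbb2*), 32.7% the GC box and 12.4% TATAAA. These matches describe letters only, and 3′ tags do not measure where transcription starts.

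*Erbb3*, the neuregulin-binding receptor gene, lies on chromosome 10 from 128567523 to 128589652 (minus strand, GENCODE vM21 on GRCm38). It was a gene of the 3 glial types, which held 488 of its 565 UMIs in typed cells (86.4%). In SGC the control libraries had 146 and 67.5 CPM and the injury libraries 77.4 and 63.6 CPM (mean 88.5 ± 38.6, SD, n = 4). Control replicate 1, with 73 SGC and 30 *Erbb3* UMIs, was the highest, and the other 3 libraries lay close together. In myelinating Schwann cells the values were 60.1 and 30.2 CPM in control and 47.1 and 22.9 CPM after injury (mean 40.1 ± 16.8, SD, n = 4). *Scn7a* glia had 178 CPM in control replicate 1 and 132 CPM in injury replicate 1, from 17 UMIs. The ranges of SGC and Schwann cells did not overlap, those of *Scn7a* glia and SGC did, and every other type averaged under 10 CPM. All of the genes except *Erbb4*, which was too rare to be tested, entered a fit across the 15 types. *Erbb3* was higher than in the mean of the other types in SGC (adjusted p = 1.08e-20), Schwann cells (3.28e-07) and *Scn7a* glia (2.88e-07; edgeR quasi-likelihood test, library as a block, Benjamini-Hochberg adjustment over 15120 genes). The share of all genes called higher in this way was 33% for SGC, 15.6% for Schwann cells and 4.51% for *Scn7a* glia, so a call alone is common.

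By cells, 361 of 1385 SGC had an *Erbb3* UMI (26.1%, exact 95% interval 23.8% to 28.5%). For comparison, 15 of 1227 fibroblasts, of similar median depth (4072 UMIs), had one (1.22%). So had 23 of 1025 macrophages (2.24%, median 4088 UMIs) and 11 of 449 endothelial cells (2.45%, median 4334 UMIs). Intervals cover counting error only. After thinning every cell to 1000 UMIs the shares were 7.37% in SGC, 5.05% in Schwann cells and 13.9% in *Scn7a* glia. In fibroblasts, macrophages and endothelial cells they were 0.27%, 0.51% and 0.55%. Most positive SGC had a single UMI: 295 had 1, 57 had 2 and 9 had 3 or more.

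*Erbb2*, the ligandless kinase partner, lies on chromosome 11 from 98412470 to 98437716 (plus strand). Its levels were low and spread over glia, fibroblasts and pericytes. SGC had 9.71 and 10.8 CPM in control and 16.6 and 14.4 CPM after injury. Schwann cells had 23.1 and 6.05 CPM in control and 9.41 and 38.1 CPM after injury, from 13 UMIs in all. Fibroblasts had 14.6 and 6.26 CPM in control and 10.9 and 8.01 CPM after injury. The ranges of these 3 types overlapped. *Erbb2* was higher than in the mean of the other types in SGC (adjusted p = 3.96e-07), Schwann cells (0.000231) and fibroblasts (8.14e-05; edgeR), where 33.4% of all genes were called higher. Neurons held 4 *Erbb2* UMIs in 261 cells. Both partners of the neuregulin receptor were detected together in 30 SGC, of 361 with *Erbb3* and 81 with *Erbb2*. The cells with both had a median of 4584 UMIs, against 3953 for all SGC, and the number expected by chance was not computed.

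**Figure D1:**
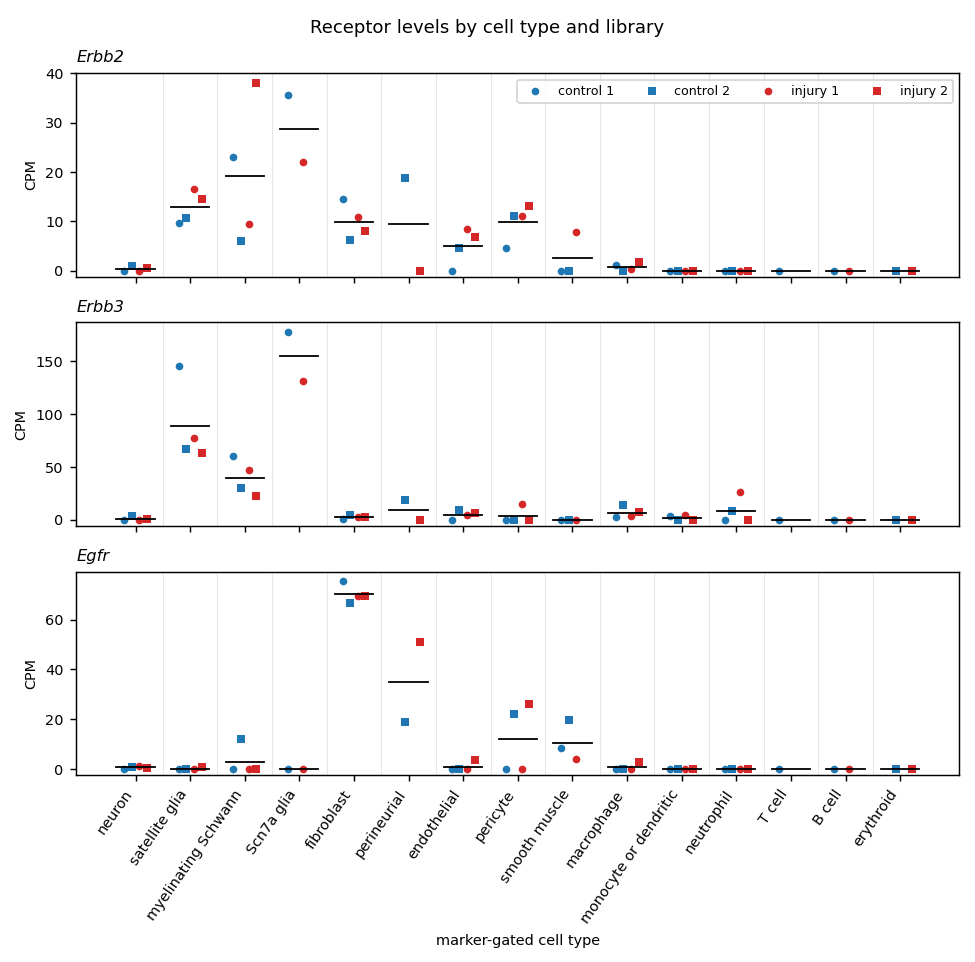
Levels of *Erbb2*, *Erbb3* and *Egfr* (CPM, linear axis) in 15 marker-gated cell types. Each point is 1 library with at least 10 cells of the type (blue, control; red, injury; circles, replicate 1; squares, replicate 2) and bars are means over libraries. *Erbb3* points stand out in the 3 glial types and *Egfr* points in fibroblasts, at 66.7 to 75.5 CPM.

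*Egfr*, the receptor of EGF-like ligands, lies on chromosome 11 from 16752203 to 16918158 (plus strand). Fibroblasts held 373 of its 403 UMIs in typed cells. Fibroblasts had 75.5 and 66.7 CPM in control and 69.4 and 69.7 CPM after injury (mean 70.4 ± 3.71, SD, n = 4), and the groups overlapped. Perineurial cells followed with 18.8 CPM in control replicate 2 and 51.1 CPM in injury replicate 2, from 4 UMIs. The ranges of these types did not overlap in the libraries with at least 10 such cells, but over all 31 perineurial cells the level was 68.3 CPM, from 9 UMIs, against 70.1 CPM over all fibroblasts. *Egfr* was higher than in the mean of the other types in fibroblasts (adjusted p = 2.98e-24, edgeR) and in perineurial cells (0.0221), where 4.23% of all genes were called higher. Of the fibroblasts, 285 of 1227 had an *Egfr* UMI (23.2%), as had 7 of 31 perineurial cells (22.6%, exact 95% interval 9.59% to 41.1%), against 1 of 1385 SGC. Fibroblast markers summed to 36036 CPM in perineurial cells of control replicate 2 and to 36465 CPM in those of injury replicate 2. In fibroblasts they summed to between 61206 and 123383 CPM. The part of fibroblast RNA in the perineurial *Egfr* level was not tested. *Egfr* and *Erbb2* were found together in 17 fibroblasts, of 285 and 50 with each. These cells had a median of 5486 UMIs, against 4072 for all fibroblasts, and the number expected by chance was not computed.

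*Erbb4*, the remaining neuregulin receptor gene, lies on chromosome 1 from 68032186 to 69108059 (minus strand). Its 7 UMIs in typed cells included 3 in SGC and 3 in Schwann cells. At this depth neither its cell type nor a change could be measured.

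*Hbegf*, which encodes the membrane-anchored ligand HB-EGF, lies on chromosome 18 from 36504927 to 36515805 (minus strand). It was the most often detected of the genes and was found in vessel cells and glia. Endothelial cells had 243 and 250 CPM in control and 292 and 304 CPM after injury (mean 272 ± 30.1, SD, n = 4). Both injury libraries lay above both control libraries, an order that 2 libraries per group often give by chance. The change did not pass the test given below. Schwann cells had 111 and 212 CPM in control and 193 and 175 CPM after injury. SGC had 131 and 106 CPM in control and 131 and 76.6 CPM after injury, and smooth muscle cells 122 to 176 CPM in 3 libraries. *Scn7a* glia had 214 CPM in control replicate 1 and 362 CPM in injury replicate 1. Pericytes lay between 48.0 and 91.3 CPM, and macrophages, fibroblasts and neurons between 0 and 21.1 CPM. In this order the ranges of endothelial and Schwann cells did not overlap, while those of *Scn7a* glia and endothelial cells, and of each later pair of neighbours down to pericytes, did. *Hbegf* was higher than in the mean of the other types in endothelial cells (adjusted p = 9.61e-28; background 26.4%), SGC (1.38e-17), Schwann cells (2.38e-17), *Scn7a* glia (1.76e-11), smooth muscle cells (1.52e-12; 13.7%) and pericytes (2.89e-06; 15%, edgeR).

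An *Hbegf* UMI was present in 234 of 449 endothelial cells (52.1%), 422 of 1385 SGC (30.5%) and 28 of 1227 fibroblasts (2.28%), whose median depths were 4334, 3953 and 4072 UMIs. Thinned to 1000 UMIs the shares were 19.2%, 10.0% and 0.64%. Single cells varied widely, up to 20 UMIs in 1 endothelial cell. In SGC, 141 cells had both *Hbegf* and *Erbb3*, of 422 and 361 with each. These cells had a median of 5476 UMIs, against 3953 for all SGC, and the number expected by chance was not computed. *Fos*, an immediate early gene that tissue dissociation can induce, was at 5235 and 1059 CPM in SGC of the control libraries and at 2672 and 1179 CPM in the injury libraries, and its part in the *Hbegf* levels was not tested.

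*Nrg1*, *Nrg2* and *Nrg3* encode the neuregulins. *Nrg1* (chromosome 8, 31814551 to 32884029, minus strand) had 82 of its 94 UMIs in typed cells in neurons. Another 47 lay in barcodes without a type, 31 of them where the neuron list led. Neurons had 13.9 and 9.81 CPM in control and 7.86 and 16.8 CPM after injury (mean 12.1 ± 4.04, SD, n = 4), and the groups overlapped. SGC had 5 UMIs in 1385 cells, Schwann cells none in 256 cells, which allows up to 1.17% of cells with a UMI. Monocytes or dendritic cells were also called higher for *Nrg1* (adjusted p = 0.0338, edgeR, background 13.6%), on 3 UMIs. Their libraries had 0 and 17.0 CPM in control and 4.66 and 8.86 CPM after injury, a range that overlapped that of neurons.

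*Nrg3* (chromosome 14, 38368952 to 39473088, minus strand) had all 99 of its UMIs in typed cells in neurons and none in the other 14 types, over 22300378 UMIs. Its levels were 54.5 and 7.91 CPM in control and 13.1 and 8.67 CPM after injury. Control replicate 1 alone was high: of its 22 neurons, 68.2% had an *Nrg3* UMI, against 12.7% to 26.1% in the other libraries. In that library 2 barcodes exceeded 100000 UMIs and held 19 of the 47 *Nrg3* UMIs. Without them the value was 59.2 CPM.

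*Nrg2* (chromosome 18, 36017652 to 36197380, minus strand) was found in several types. T cells had the highest value, 11.1 CPM, but from 2 UMIs in the 1 library with enough of these cells. Neurons had 5.79 and 13.0 CPM in control and 2.62 and 11.7 CPM after injury. Fibroblasts had 0.858 and 10.4 CPM in control and 2.04 and 8.01 CPM after injury, and macrophages 0 and 10.8 CPM and then 0.783 and 7.03 CPM. In neurons, fibroblasts and macrophages both replicate 2 libraries lay above both replicate 1 libraries, whatever the condition. Such an order is common by chance with so few libraries, and these types come from the same libraries. The share of all genes so ordered was not counted. The labels name no batch behind the replicate numbers. The study's reporting summary uses the word for its pools of mice but does not say which libraries shared one. A legend of the study counts independent experiments over control and injury, also without naming libraries. The part of a batch was not tested. Against the mean of the other types *Nrg2* was higher in neurons (adjusted p = 6.72e-05; background 44.2%), fibroblasts (0.00429) and macrophages (0.0232; 29.5%, edgeR), and *Nrg1* and *Nrg3* were higher in neurons (8.31e-10 and 1.38e-13).

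*Btc*, the betacellulin gene (chromosome 5, 91357261 to 91402994, minus strand), had 23 UMIs in typed cells, 10 of them in neurons and 9 in fibroblasts. Neurons of control replicate 2 held 9 of the 10. Over all cells of a type *Btc* was at 1.48 CPM in neurons and at 1.69 CPM in fibroblasts. *Scn7a* glia were higher, at 12.4 CPM, but from 2 UMIs in 68 cells. In all, 21 of 120 tests of a gene in a type against the mean of the other types were called, all of them higher. Of these, 3 were in neurons (*Nrg1*, *Nrg2* and *Nrg3*, not *Btc*) and 4 in fibroblasts (*Egfr*, *Erbb2*, *Nrg2* and, on 9 UMIs, *Btc*). The shares of all genes called higher there were 44.2% and 33.4%. Over all types the share of all genes called higher ran from 2.82% to 44.2%. The share called lower ran from 0.43% (perineurial cells) to 6.35% (neurons), so many calls, mostly higher, are common to all genes in this fit. No gene was called in B cells, T cells, erythroid cells or neutrophils, where 2.82%, 6.71%, 6.05% and 9.74% of all genes were higher. None of the 9 genes shared an exon with another gene on its strand in the annotation.

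**Figure D2:**
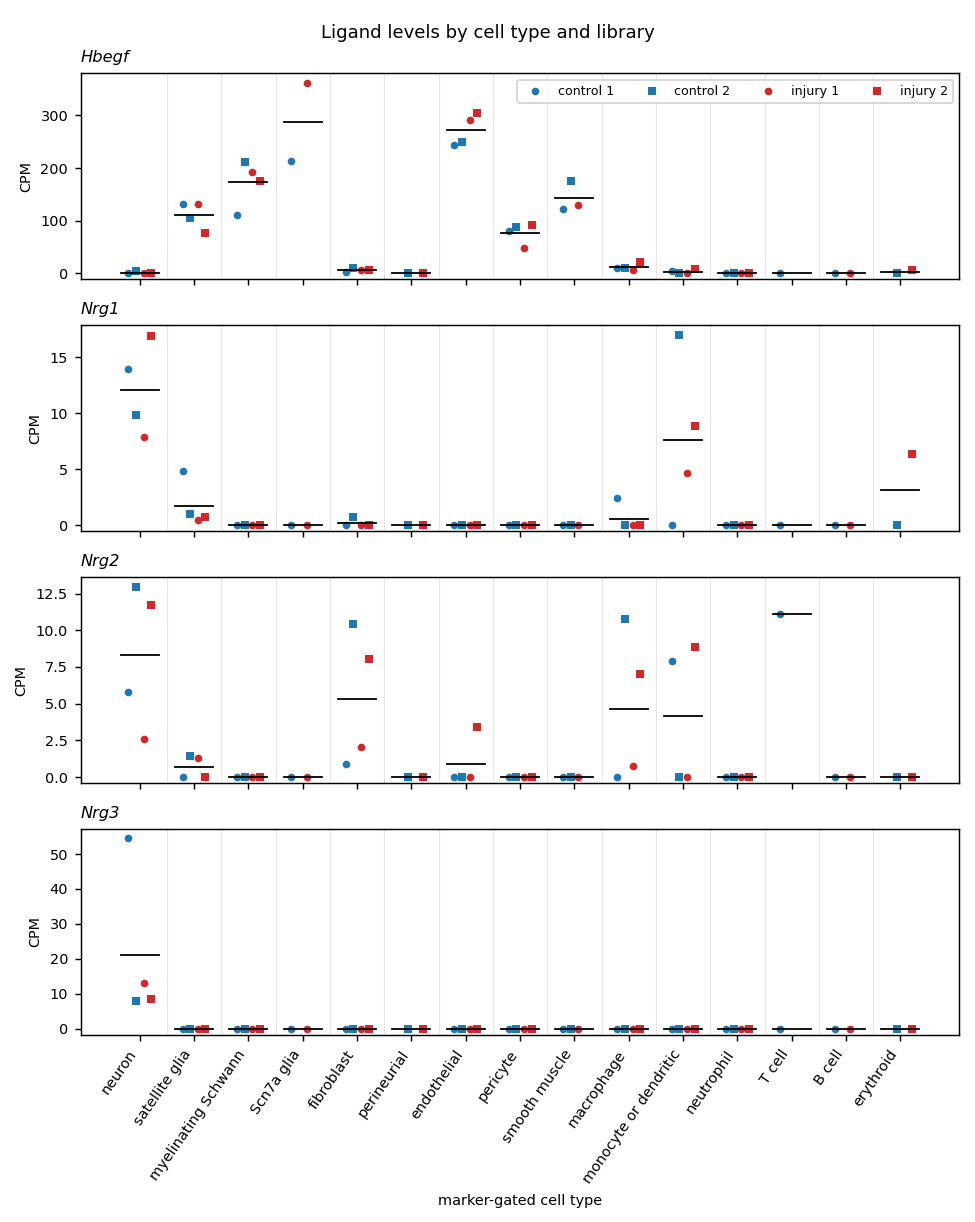
Levels of *Hbegf*, *Nrg1*, *Nrg2* and *Nrg3* (CPM, linear axis) in 15 marker-gated cell types. Each point is 1 library with at least 10 cells of the type (blue, control; red, injury; circles, replicate 1; squares, replicate 2) and bars are means over libraries. *Nrg3* points are above 0 in neurons alone, and the *Nrg2* squares lie above the circles in neurons, fibroblasts and macrophages.

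Neurons and the SGC that envelop them were compared directly, for ligand and for receptor genes. RNA levels do not show which ligand binds which receptor. *Nrg1* was higher in neurons than in SGC, with a log2 fold change of 3.20 ± 0.59 (SE, adjusted p = 6.32e-06, edgeR), as was *Nrg2* at 2.71 ± 0.61 (0.000139). *Nrg3* and *Btc* were called as well (1.35e-08 and 0.0149). SGC had no UMI of either, so their levels over all neurons are set against the floor of 3 UMIs over all SGC. *Nrg3*, at 14.7 CPM, was at least 29.3-fold higher than this floor, and at least 17.6-fold higher without the neurons of control replicate 1. *Btc*, at 1.48 CPM (0.711 to 2.73), was 2.96 times the floor, but without control replicate 2 a single UMI was left in neurons and no test was made. Of the receptor genes, *Erbb3* was lower in neurons by 5.44 ± 0.39 on the log2 scale (adjusted p = 4.08e-20) and *Erbb2* by 4.17 ± 0.52 (2.81e-10). The ligand gene *Hbegf* went the other way from the neuregulins and was lower in neurons by 5.60 ± 0.34 (6.51e-24). Thus 7 of 8 genes tested were called, 4 higher and 3 lower, where 52.7% of all genes were called, 30.1% higher and 22.6% lower. With DESeq2, 3 genes were called: the *Nrg1* and *Nrg2* calls were lost (log2 fold changes of 3.16 ± 4.12 and 2.61 ± 2.52, SE), and *Nrg3* and *Btc* had no adjusted p. SGC markers summed to between 161 and 531 CPM in neurons and to between 11359 and 19149 CPM in SGC, and neuron markers to between 53.4 and 164 CPM in SGC.

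SGC and myelinating Schwann cells were compared because the study sets these glia apart. *Erbb3* was higher in SGC, with a log2 fold change of 1.09 ± 0.37 (SE, adjusted p = 0.0334, edgeR), where the median of all genes was 0.30 and 12.9% of genes were called. This call was lost without control replicate 2 (1.10), without injury replicate 2 (0.99), without the library block (1.11), with a filter at 10 counts (0.97) and with a gate that left out cells with 3 or more markers of another type (0.72). *Erbb2* differed by -0.18 (95% interval -1.21 to 0.85) and *Hbegf* by -0.51 (-1.01 to -0.02, adjusted p = 0.196). Between *Scn7a* glia and SGC none of the 8 genes passed (3.03% of all genes did; edgeR), and 2 had an unadjusted p under 0.05. *Hbegf*, 1 of these 2, differed by 0.98 (95% interval 0.24 to 1.72). *Erbb3*, which was not among them, differed by 0.19 (-0.83 to 1.21).

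The response to nerve crush was tested within each type that had 10 cells in all 4 libraries. Enough counts for a test were reached 13 times, in 7 types. No change passed (edgeR, adjusted p from 0.897 to 1.00), none had an unadjusted p under 0.05, and DESeq2 also called 0. The background was low in these fits, with 0.0427% of genes called in neurons and 0.0112% in fibroblasts. It was 0% in SGC, Schwann cells, endothelial cells, pericytes and macrophages. These fits had no replicate block, and adding it called more genes in each of the 7 types. In SGC the log2 fold change of *Erbb3* was -0.34 (95% interval -1.12 to 0.44), and without control replicate 1 it was 0.08. *Erbb2* was 0.59 (-0.36 to 1.54), and *Hbegf* was -0.07 (-0.77 to 0.63). For *Erbb2* both injury libraries lay above both control libraries, which is common by chance with so few libraries. The share of all genes so ordered was not counted. *Hbegf* was 0.35 (-0.14 to 0.85) in endothelial cells and 0.18 (-0.79 to 1.16) in Schwann cells. *Egfr* in fibroblasts was 0.03 (-0.49 to 0.56), so the interval leaves out a change of 1 or more on the log2 scale. In neurons *Nrg1* was 0.29 (-0.86 to 1.43), *Nrg2* -0.24 (-1.76 to 1.29) and *Nrg3* -1.37 (-3.56 to 0.81). The last value rested on control replicate 1, and without that library it was 0.53. Between SGC and Schwann cells, endothelial cells, fibroblasts or neurons, 17 tests of a difference in the injury effect were made and none passed (edgeR), with none at an unadjusted p under 0.05. The share of all genes called in these 4 fits was 0.0567%, 0.051%, 0.0482% and 0.482%.

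**Figure D3:**
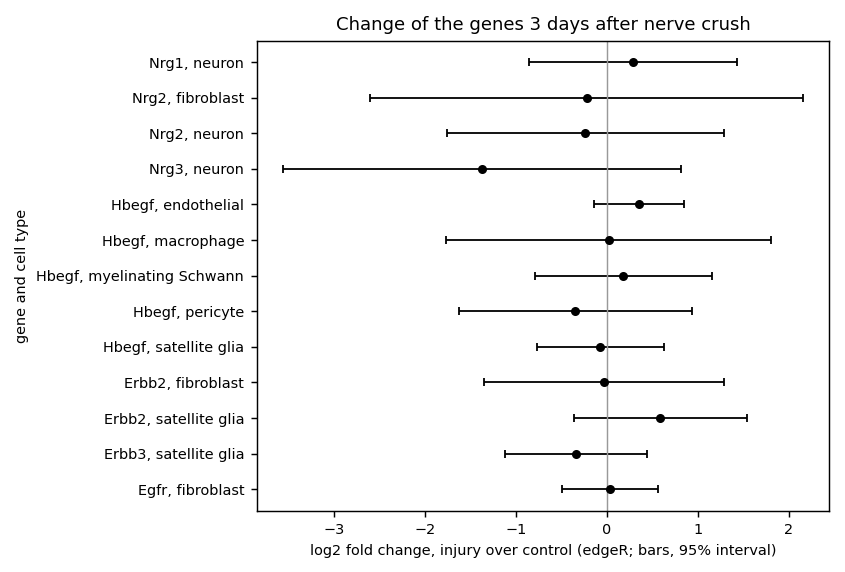
Log2 fold change of injury over control for each gene and cell type with enough counts (points, edgeR estimates from 2 libraries per group; bars, 95% intervals). All 13 intervals cross 0, and that of *Egfr* in fibroblasts, -0.49 to 0.56, is among the narrowest.

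Within neurons the neuregulin genes were set against neuronal subtypes, gated by fixed subtype markers. Subtype values pool the libraries, so they carry a 95% counting interval and no test. The 175 peptidergic neurons had 11.5 CPM of *Nrg1* (8.40 to 15.3), 9.72 of *Nrg2* (6.91 to 13.3) and 14.0 of *Nrg3* (10.5 to 18.1). The 9 neurofilament neurons, the large myelinated class, had 36.7 CPM of *Nrg1* (16.8 to 69.7) and 44.9 CPM of *Nrg3* (22.4 to 80.3), from 9 and 11 UMIs. All 9 of those *Nrg1* UMIs came from the 5 neurofilament neurons of the injury libraries. The 8 nonpeptidergic neurons had 27.3 CPM of *Nrg3* (15.3 to 45.1) and 20.0 CPM of *Nrg2* (10.0 to 35.8). The 20 low-threshold C neurons had the lowest *Nrg3*, 5.23 CPM (1.08 to 15.3). With so few cells these orders were not firm.

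In the injury libraries some neurons carried 4 or more of 6 injury markers (*Sprr1a*, *Atf3*, *Ecel1*, *Gal*, *Npy*, *Sox11*), a limit set after the data were seen. There were 11 such neurons in injury replicate 1, 12 in injury replicate 2 and none in control. They had 2 *Nrg2* UMIs in all, 2.00 CPM (0.242 to 7.21), against 13.4 CPM (8.47 to 20.0) in the other 66 neurons of the injury libraries. By library, *Nrg2* was at 0 against 7.41 CPM in injury replicate 1, where 2 UMIs lay in the other neurons, and at 3.93 against 14.5 CPM in injury replicate 2. *Nrg1* was at 17.0 CPM (9.88 to 27.2) against 12.8 (8.01 to 19.3), and *Nrg3* at 12.0 CPM (6.19 to 20.9) against 8.71 (4.88 to 14.4). The intervals of *Nrg1* and of *Nrg3* overlapped and those of *Nrg2* did not, which covers counting error only. The share of all genes whose intervals lie apart under this split was not counted. Neurons with 4 or more injury markers had a median of 41639 UMIs and the other 66 a median of 20854 UMIs. The part of this depth in the *Nrg2* levels was not tested. In injury replicate 2, a single neuron with fewer injury markers held 5 of the 23 *Nrg2* UMIs. Whether the *Nrg2* intervals lie apart without this neuron was not computed.

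**Figure D4:**
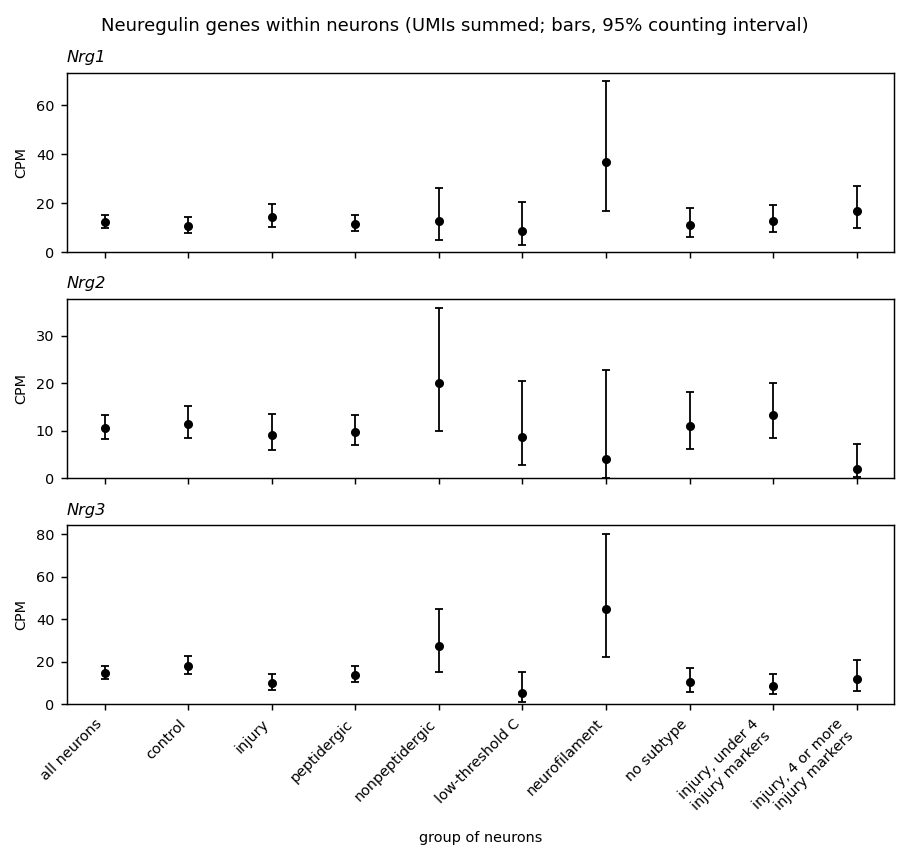
CPM of *Nrg1*, *Nrg2* and *Nrg3* in groups of neurons, with UMIs summed over libraries (points). Bars are exact binomial 95% intervals that cover counting error only. The neurofilament group stands highest for *Nrg1* and *Nrg3*, at 36.7 and 44.9 CPM, and neurons with 4 or more injury markers stand lowest for *Nrg2*, at 2.00 CPM.

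A list of 50 other genes of the pathway was read from the same fits. Injury called none of them in any type, of 3 to 37 tested. Between SGC and Schwann cells, 44 were tested, 1 was higher and 7 were lower in SGC, beside 7.92% and 4.93% of all genes. The higher one was *Src*, a non-receptor kinase, with 138 UMIs in SGC and 2 in Schwann cells, a ratio of CPM of 8.36 (exact 95% counting interval 2.27 to 69.7). Among the lower ones were the promyelinating transcription factors *Egr2* (-3.35) and *Pou3f1* (-2.22), the signalling kinase gene *Mapk3* (-0.77), the sheddase *Adam10* (-1.92), which releases ErbB ligands, and *Errfi1* (-1.81), an inhibitor of the EGF receptor. The median of the list was -0.09, against 0.30 for all genes.

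Between neurons and SGC, 15 of the 44 were higher and 17 lower in neurons, beside 30.1% and 22.6% of all genes, so the share that was higher is near the background. Of 18 adaptors and kinases 11 were higher and 3 lower, among the former *Hras* (2.20) and *Grb2* (1.75), while all 6 glial targets and transcription factors were lower, such as *Sox10* (-5.56), *Egr2* (-3.75) and *Pou3f1* (-3.73). Of 6 shedding and processing genes, 3 were lower, including the sheddase *Adam17* (-3.68) and *Rhbdf1* (-4.64), which helps to mature it. *Dusp6*, a phosphatase that ERK signalling induces, was lower by 3.52 on the log2 scale, and *Rnf41*, the ubiquitin ligase that turns over ERBB3, was higher at 1.85. Between *Scn7a* glia and SGC, 1 of the 44 was higher and 1 lower, where 3.03% of all genes were called, and the higher one was *Egr2* (2.16).

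For the 5 genes with at least 100 UMIs in typed cells, the genes with the most similar profile over the 15 types were sought. The measure was Pearson's r of log2(mean CPM + 1), a description in which types share libraries. Each type counted alike, even where its level rested on few UMIs (2 for *Nrg2* in T cells, 3 for *Erbb2* in *Scn7a* glia). *Erbb3* was followed most closely by *Dbi* (r = 0.919), *Paqr6* (0.915), *Cyp2j6* (0.894), *Aspa* (0.882) and *Cmtm5* (0.877). *Egfr* was nearest to *Medag* (0.976), *Foxd1* (0.975), *Shisa3* (0.966), *Bmp5* (0.960) and *Scarf2* (0.958). *Erbb2* was nearest to *Kank4* (0.955), *Gulp1* (0.951), *Cdc42ep1* (0.943), *Angptl4* (0.937) and *Hspg2* (0.931). *Hbegf* was nearest to *Kdm5a* (0.914), *Prex2* (0.904), *Gprc5b* (0.888), *Angpt2* (0.884) and *Nes* (0.880), and *Nrg2* to *Slc9a9* (0.843), *Arl4c* (0.817), *Ebp* (0.815), *Adcy7* (0.811) and *Tradd* (0.790).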

How the data were processed

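Per the labels, the deposited matrices hold raw UMI counts per gene and barcode on mm10, made by the authors with Cell Ranger, and the submitters' processing notes also name Partek. No column was left without a sample. Totals per library limit what rare genes can show. Barcodes took the type whose marker list they held the largest share of, with at least 3 markers and a lead over 0.1. Types other than neurons had to pass the limits in the methods (600 to 15000 UMIs, 500 to 4000 genes, under 10% mitochondrial UMIs), while neurons came from all barcodes. No doublet caller was run. A stricter gate, which dropped barcodes with 3 or more markers of another type, left 5, 10, 4 and 6 neurons per library.

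UMIs were summed per library and type (at least 10 cells) and tested with edgeR 4.0.16 (R 4.3.3; TMM, quasi-likelihood, Benjamini-Hochberg adjusted p under 0.05). Injury was tested within each type (filterByExpr, minimum count 10), and types in 1 fit with library as a block (minimum count 1). The fits were also run on simulated counts. Those left out genes as sparse as *Btc* and began from the same level in every type, so they do not test such genes. DESeq2 1.42.0, no filter on low counts, all barcodes, a stricter gate and leaving out each library were alternatives. Shares were thinned to 1000 UMIs per cell. Named were the 9 genes, at most 10 called pathway genes per comparison and the 5 most similar genes. Some genes that this rule names are not reported here. The members and lists were chosen with earlier results of these data known. Coordinates are from GENCODE vM21.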

Additional observations from a re-analysis of the deposited data

Results flagged for a closer look

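Over the 4 libraries, control and injury together, 16 sets of levels were checked for a library far from the other 3, and 2 stood out. Chance gives about 1 in 20 where all 4 libraries vary alike. *Erbb3* in SGC was at 146 CPM in control replicate 1, with a gap to the next library of 0.832 of the whole range. That library's SGC had a median of 2432 UMIs, against 3068 to 4988.5 in the others, and its SGC markers summed to 11359 CPM, against 15325 to 19149 CPM. Markers of *Scn7a* glia summed to 219 CPM in its SGC, with 2 of 7 at 0, against 149 to 196 CPM, and Schwann cell markers to 72.8 CPM, against 64.6 to 94.8 CPM. The part of these in the *Erbb3* level was not tested. *Nrg3* in neurons was at 54.5 CPM in control replicate 1, from 47 UMIs in 22 neurons, with a gap of 0.889 of the range.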

How the results depend on the processing

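For injury against control, 0 of the 9 genes were called under every alternative run, including the replicate block, which gave 0. Same-numbered libraries deviated together in the 5 types checked (correlations of 0.180 to 0.439). The labels tie them to no shared batch, and the study's reporting summary speaks of batches without saying which libraries formed one. The study's legend for cell type shares in control and injury counts independent experiments, also without naming libraries. The main injury fits assumed no pairing. Over all genes the block called 37 in neurons (4 without it) and 15 in fibroblasts (1 without it). It called 275 in macrophages, 27 in endothelial cells, 22 in SGC, 18 in Schwann cells and 3 in pericytes, with 0 in each without it. Over the alternatives that kept every library, the counts ran from 4 to 288 in neurons and from 0 to 71 in fibroblasts. In the other types they ran from 0 to at most the 275 in macrophages.

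Against the mean of the other types, 21 calls became 13 with DESeq2, 12 with a filter at 10 counts (chosen after seeing the data, and testing fewer genes) and 13 with the stricter gate, and 17 to 20 when 1 library was left out. Between SGC and Schwann cells the 1 call became 0 under the filter at 10 counts, no replicate block and the stricter gate, and 0 to 1 when 1 library was left out. Between *Scn7a* glia and SGC, 2 genes were called with all deposited barcodes. Between neurons and SGC, 7 calls became 3 with DESeq2, 3 with the filter at 10 counts and 3 with the stricter gate, which kept 10 neurons in only 1 library, and 6 to 7 when 1 library was left out. The causes were not tested unless named.

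Directions turned in these cases. *Erbb2* between SGC and Schwann cells was 0.26 with the stricter gate and -0.49 to 0.21 when 1 library was left out. *Erbb3* between *Scn7a* glia and SGC was -0.50 with all deposited barcodes. *Hbegf* after injury in SGC was 0.0265 with all deposited barcodes, 0.0367 with the stricter gate and -0.51 to 0.25 when 1 library was left out. Leaving out 1 library gave -0.863 to 0.0768 for *Erbb3* in SGC, -0.39 to 0.60 for *Nrg1*, -1.76 to 0.47 for *Nrg2* and -2.34 to 0.53 for *Nrg3* in neurons, -0.0722 to 0.167 for *Egfr* in fibroblasts and -0.26 to 0.78 for *Hbegf* in Schwann cells. A lone library was then taken to vary like the others. Thinning to 2000 in place of 1000 UMIs gave *Erbb3* shares of 13.8% in SGC and 9.82% in Schwann cells. Few UMIs per gene left wide intervals.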
